A study of Rattus norvegicus with 218 samples.

Results

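Single neurons captured from the vagal dorsal motor nucleus (DMV) were split by whether a transcript of Gad1 or Gad2, the paralogous genes of glutamate decarboxylase, the enzyme that makes the inhibitory transmitter GABA, was measured in them. Among the 213 samples of the series, 115 were labelled as 1 cell, and 98 of these had a threshold cycle (Ct) in at least 42 assays of a panel of 165 genes and were kept. Gad1 or Gad2 had a Ct in 51 of the 98 neurons (Gad-positive), and neither had one in 47 (Gad-negative). Ct is the cycle at which a microfluidic RT-qPCR signal crosses its threshold, so a lower Ct means more transcript. A missing Ct means below the limit of detection, not absence, and the share of neurons with a Ct is called the detection share. Ct counts for the neurons nearest the limit were 44, 46 and 47 assays just inside it and 41, 40 and 38 just outside, and 4 of the 17 neurons left out had Gad1 or Gad2.

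All neurons came from male Sprague Dawley rats. The naive animals had no surgery. Sham animals had anesthesia with ketamine/xylazine and the femoral vessels exposed without being tied, and the RIPC (remote ischemic preconditioning) animals had the vessels of both hind limbs tied off and released. Tissue of both surgical groups was taken 2.5 h after reperfusion, and neurons were picked by laser from thin sections stained for the neuronal protein NeuN, on the left and the right side.

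The DMV holds the parasympathetic motor neurons that send their axons through the vagus nerve to the gut, heart and other organs, and most of them make acetylcholine with choline acetyltransferase, the product of Chat. GABA reaches these cells mainly from the neighbouring nucleus of the solitary tract, and local GABA neurons lie among them. Gad1 encodes the GAD67 form of the enzyme and Gad2 the GAD65 form, which sits largely at nerve terminals, and neurons that release GABA commonly carry both.

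Most of the kept neurons came from a single rat, naive replicate 3, with 54 of 98 (22 Gad-positive, 32 Gad-negative), and naive replicate 2 gave 3, all Gad-positive. RIPC replicates 1, 2 and 3 gave 3, 5 and 10 Gad-positive and 1, 5 and 1 Gad-negative neurons. Sham replicates 1, 2, 3 and 4 gave 2, 2, 1 and 3 Gad-positive and 5, 1, 0 and 2 Gad-negative neurons. Only 4 animals therefore had at least 2 neurons in each arm, namely naive replicate 3, RIPC replicate 2 and sham replicates 1 and 4, with 32 Gad-positive and 44 Gad-negative neurons. In the comparison weighted by the numbers of neurons, naive replicate 3 carried 71.8% of the weight and the other 3 animals 13.8%, 7.86% and 6.61%. The title of 1 RIPC neuron began like those of another RIPC animal than its label names, and results on share are also given without it in the closing section.

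Gad-positive and Gad-negative neurons gave about the same number of other detected assays. The count, which leaves out Gad1 and Gad2, ran from 46 to 147 with a median of 69.0 in Gad-positive neurons and from 44 to 102 with a median of 68.0 in Gad-negative neurons. Within animals the Gad-positive neurons had 2.41 more (SE 3.49, n = 4 animals; exact sign-flip test over animals, two-sided p = 0.75, where 0.125 is the smallest p that 4 animals allow). Gad detection was also close in neurons with few and with many other assays: 26 of 52 neurons at or below the overall median (50%) and 25 of 46 above it (54.3%) were Gad-positive.

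Most Gad-positive neurons carried Gad2. Both genes were detected in 30 neurons, Gad2 alone in 16 and Gad1 alone in 5. Gad1 had a Ct from 11.5 to 19.9 with a median of 14.6 in 35 neurons, and Gad2 one from 8.46 to 23.9 with a median of 14.1 in 46 neurons. These values chose the groups and are given as a description. In neurons with both genes Gad2 had the lower Ct in 26 of 30, by a median of 1.46 cycles, a difference between assays that may also hold unequal amplification of the primers. For Gad2, 3 neurons had a Ct above 20, the limit for a late Ct used in the alternatives, and for Gad1 none had.

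The share of Gad-positive neurons was 25 of 57 (43.9%) in naive, 8 of 16 (50%) in sham and 18 of 25 (72.0%) in RIPC animals. By animal the shares overlapped between treatments: 40.7% and 100% in the naive animals, 28.6%, 60.0%, 66.7% and 100% in the sham animals, and 50%, 75.0% and 90.9% in the RIPC animals. The left DMV had 28 Gad-positive neurons of 52 (53.8%) and the right 23 of 46 (50%). Within treatments the sides were 15 of 29 on the left and 10 of 28 on the right in naive animals, 2 of 9 and 6 of 7 after sham surgery, and 11 of 14 and 7 of 11 after RIPC.

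Chat was the gene whose detection differed most between the arms. It was detected in 41 of 47 Gad-negative neurons (87.2%) and in 27 of 51 Gad-positive neurons (52.9%). In naive replicate 3, 29 of 32 Gad-negative neurons had Chat (90.6%, 95% Wilson interval 75.8% to 96.8%) against 8 of 22 Gad-positive neurons (36.4%, 19.7% to 57%); these intervals cover counting error only. In sham replicate 1 Chat was found in 4 of 5 Gad-negative and 0 of 2 Gad-positive neurons, and in RIPC replicate 2 in 4 of 5 and 3 of 5. Sham replicate 4 went the other way, with 1 of 2 Gad-negative and 2 of 3 Gad-positive neurons. In the animals with 1 Gad-negative neuron each, that neuron had Chat in all 3, and Chat was found in 3 of 3 Gad-positive neurons of RIPC replicate 1, 6 of 10 of RIPC replicate 3 and 2 of 2 of sham replicate 2.

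Set at an equal number of other detected assays, the detection share of Chat was lower in Gad-positive than in Gad-negative neurons, with a difference of -49.4 percentage points (SE 9.44, 95% interval -70.1 to -28.7, n = 4 animals; limma adjusted p = 0.031 over 120 genes). The adjustment fits 1 line per gene within animal and arm. By animal the difference was -59.05 points in naive replicate 3, -67.58 in sham replicate 1, -16.87 in RIPC replicate 2 and 9.57 in sham replicate 4, lower in 3 of 4. The exact sign-flip test over these 4 animals gave p = 0.25, above its floor of 0.125. With 7 animals that had at least 1 neuron in each arm, the difference was -46.9 points (limma adjusted p = 0.00912, Chat alone called, 0.833% of 120 genes), and the plain share was lower in 4 of the 5 animals in which the arms differed; in RIPC replicate 1 and sham replicate 2 every neuron had Chat.

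The result for Chat rests mostly on naive replicate 3. Without that animal the difference was -24.5 points (SE 16.5, limma adjusted p = 0.751), and with the 4 animals weighted equally it was -33.5 points (limma adjusted p = 0.49). It also missed the threshold without RIPC replicate 2 (-54.6 points, limma adjusted p = 0.162), without sham replicate 4 (-53.5 points, limma adjusted p = 0.115), with first runs only (-50.2 points, limma adjusted p = 0.0518) and with genes detected in 5% to 98% of neurons admitted (limma adjusted p = 0.102). In all 27 alternative linear fits on single neurons Gad-positive neurons had the lower share of Chat, from -58.9 to -24.5 points. Of the 27, 19 passed the threshold, a count that mixes fits over animals with fits that had the neuron as the unit. Neurons of 1 animal are not independent, so fits with the neuron as the unit and the animal as a block give p-values that are too small for a statement about animals; that fit gave -46.9 points (SE 8.82).

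**Figure D1:**
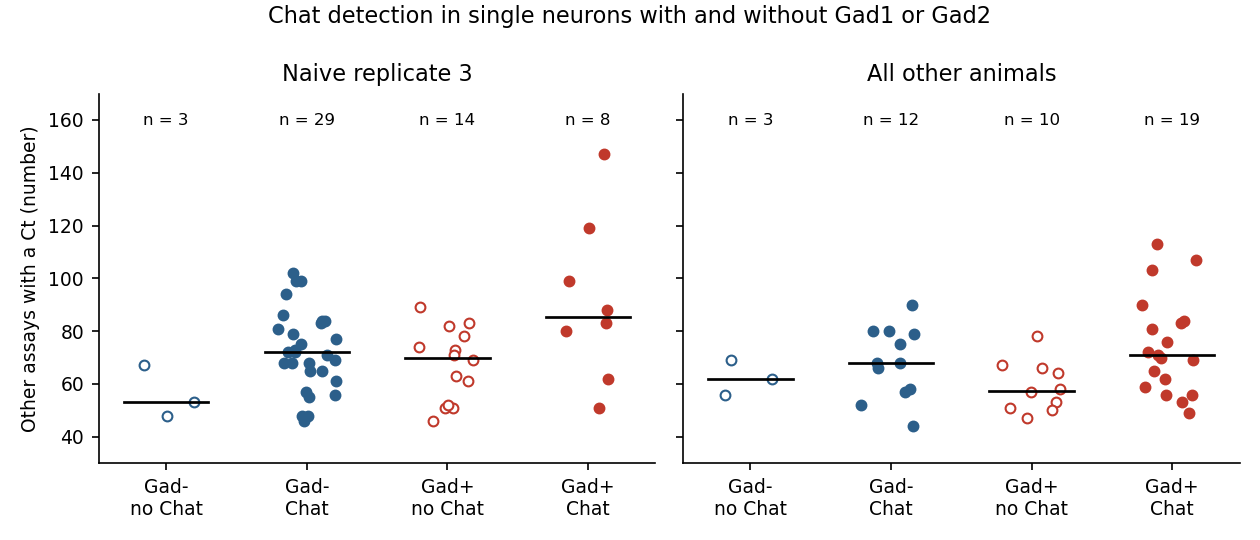
Number of other assays with a Ct (y axis) for each single neuron, by Gad arm and Chat detection (x axis), in naive replicate 3 (left) and in all other animals (right); filled points have a Ct for Chat, open points have none, and the bar is the median of the column. In naive replicate 3, 3 of 32 Gad-negative neurons lacked Chat against 14 of 22 Gad-positive neurons, and in the other animals 3 of 15 against 10 of 29.

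Turned around, 80.0% of the neurons without Chat were Gad-positive (24 of 30), as were 39.7% of those with Chat (27 of 68). So a transcript for acetylcholine synthesis and one for GABA synthesis were measured together in 27 of the 98 neurons. Chat shares were close among the Gad classes: 3 of 5 neurons with Gad1 alone, 9 of 16 with Gad2 alone (56.2%) and 15 of 30 with both (50%). In naive replicate 3 they were 1 of 2, 3 of 6 and 4 of 14.

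Neurons with Chat also had more other transcripts measured, with a median of 72.0 other assays against 62.5 in neurons without it. Among Gad-positive neurons, Gad2 had a median level of 0.27 cycles above the neuron's centre where Chat was detected (n = 24, range -11.4 to 3.82) and 1.18 cycles where it was not (n = 22, range -4.42 to 3.46). Here the level is the neuron's median Ct over the 35 most often detected genes minus the gene's Ct, so that 1 cycle is about a doubling. For Gad1 the medians were -0.79 (n = 18) and 0.21 cycles (n = 17). The ranges overlapped for both genes, and the 3 Gad2 values above a Ct of 20 were all in neurons with Chat.

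**Figure D2:**
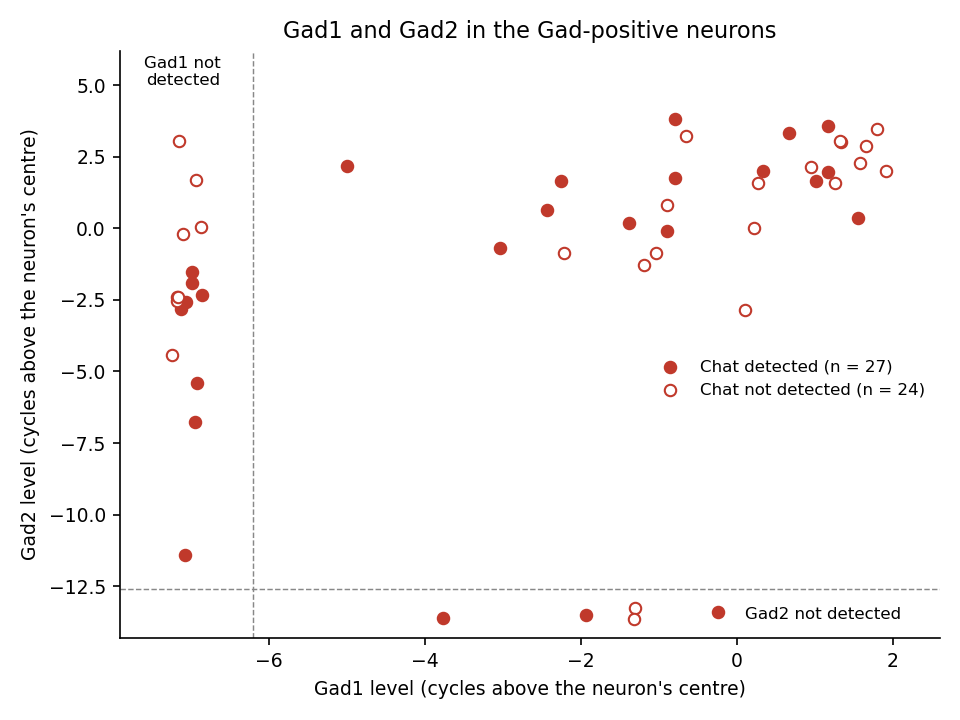
Level of Gad1 (x axis) and Gad2 (y axis) in the 51 Gad-positive neurons, in cycles above the neuron's centre (the median of the 35 most often detected genes); neurons without a Ct for a gene are drawn beyond the dashed lines, with sideways scatter to keep points apart. Filled points are the 27 neurons with Chat and open points the 24 without, and both kinds lie in each of the 3 Gad classes.

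Chat was the only 1 of 120 genes past an adjusted p of 0.05 in limma (0.833% of genes tested), while 23 had an unadjusted p under 0.05 (19.2%), 10 higher (8.33%) and 13 lower (10.8%) in Gad-positive neurons. A gene was tested if detected in 10% to 95% of the 98 neurons, which left out 35 rarer and 8 more common genes of 163. The median difference over the 120 genes was 0.16 points, with 61 genes above 0 and 59 below. With the neuron as the unit and the animal as a block 2 genes passed (1.67%), Chat and Trpc6. For every gene named in what follows the direction is that of the 4 animals, and none but Chat passed the adjusted threshold.

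**Figure D3:**
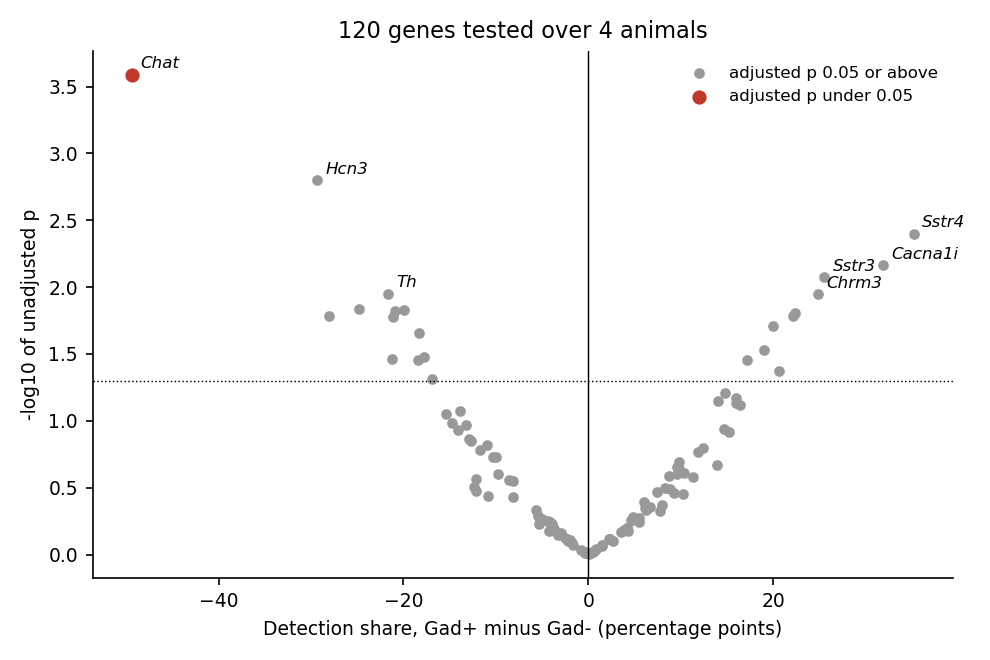
Difference in detection share between Gad-positive and Gad-negative neurons in percentage points (x axis) against -log10 of the unadjusted limma p (y axis) for the 120 genes tested over 4 animals; the dotted line marks an unadjusted p of 0.05. Chat, at -49.4 points, is the single gene with an adjusted p under 0.05, and Hcn3, at -29.4, is next.

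Among catecholamine genes, Th had an estimate below 0. Th, the gene of tyrosine hydroxylase, which opens the path to dopamine and noradrenaline, had a Ct in 29 of 47 Gad-negative (61.7%) and 26 of 51 Gad-positive neurons (51.0%). At equal assays the estimate was -21.65 points (SE 7.15, limma adjusted p = 0.142), with the same sign in all 4 animals: -36.47, -19.22, -14.65 and -25.48 points in RIPC replicate 2, naive replicate 3 and sham replicates 1 and 4. Over the 7 animals with a neuron in each arm the plain share of Th was lower in 5, higher in 1 and equal in the other. Dbh, whose product turns dopamine into noradrenaline, was found in 12 Gad-positive and 8 Gad-negative neurons (3.57 points, SE 8.36). Ache, which breaks down acetylcholine, was near ubiquitous in both arms, with 45 of 51 and 44 of 47 neurons (-4.89 points, SE 8.02).

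Chat and Th together were measured in 27 of 47 Gad-negative neurons (57.4%) and in 16 of 51 Gad-positive neurons (31.4%). Th without Chat was seen in 2 Gad-negative (4.26%) and 10 Gad-positive neurons (19.6%), and neither gene in 4 (8.51%) and 14 (27.5%). In naive replicate 3 no Gad-negative neuron of 32 had Th without Chat, against 6 of 22 Gad-positive neurons (0 of 32 neurons, which allows a share of up to 9.38%). These combinations contain the Chat difference already described and were not tested separately.

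Hcn3 and Hcn4 encode channels that carry the hyperpolarization-activated current, which sets resting potential and pacing. They were among the leading genes one by one, and the family as a whole is not summarised here. Hcn3 was detected in 36 of 47 Gad-negative neurons (76.6%) and 31 of 51 Gad-positive neurons (60.8%), and after the adjustment the difference was -29.4 points (SE 7.11, 95% interval -45.0 to -13.7, limma adjusted p = 0.0956). In naive replicate 3 it was found in 25 of 32 Gad-negative and 12 of 22 Gad-positive neurons, in RIPC replicate 2 in 4 of 5 and 2 of 5, in sham replicate 1 in 4 of 5 and 1 of 2, and in sham replicate 4 in 1 of 2 and 1 of 3. All 4 animals thus had the lower share in Gad-positive neurons, as did 6 of the 7 with any neuron in each arm. Hcn4 was also lower in all 4 animals (-19.93 points, SE 6.94, limma adjusted p = 0.142), and over the 7 animals its plain share was lower in 5 and higher in 2. Over all 120 genes, the plain share was lower in all 4 animals for 7 and higher in all 4 for 3.

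Subunits of the GABA-A receptor, the chloride channel through which GABA inhibits its targets, had point estimates below 0 in 5 of the 5 tested that are reported here, with a median of -13.9 points, against 59 of all 120 genes below 0 and a median of 0.16. None of the 5 passed the adjusted threshold, and 1 had an unadjusted p under 0.05, Gabre, against 13 lower of 120 (10.8%). Gabre, the epsilon subunit, was detected in 19 of 47 Gad-negative (40.4%) and 16 of 51 Gad-positive neurons (31.4%), a difference of -18.4 points at equal assays (SE 7.66, limma adjusted p = 0.199), and Gabra2, Gabrb1, Gabrb2 and Gabrq lay between -14.1 and -3.67 points. Without naive replicate 3 Gabra2 moved to -0.86, Gabrb1 to -8.62 and Gabrb2 to -34.1 points, and in pools all but Gabre of the 5 had estimates above 0.

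Among genes with estimates above 0 in Gad-positive neurons, a somatostatin receptor had the smallest p. Sstr4, an inhibitory receptor for the peptide somatostatin, was detected in 37 of 51 Gad-positive (72.5%) and 20 of 47 Gad-negative neurons (42.6%), a difference of 35.2 points at equal assays (SE 9.77, 95% interval 13.8 to 56.7, limma adjusted p = 0.142). Its differences by animal were 23.09 points in RIPC replicate 2, 31.37 in naive replicate 3, 112.44 in sham replicate 1 and 10.36 in sham replicate 4. A straight line can carry an adjusted share past 100 points, which happened in at least 1 animal for 3 genes; in sham replicate 1 the plain counts for Sstr4 were 2 of 2 and 0 of 5. Over the 7 animals its plain share was higher in 5 and lower in 2. Sstr3, a related receptor, was found in 19 Gad-positive (37.3%) and 5 Gad-negative neurons (10.6%), 25.5 points more at equal assays (SE 8.01, limma adjusted p = 0.142). Of the 7 animals with a neuron in each arm, Sstr3 was detected in 5, and its share was higher in Gad-positive neurons in each of those 5; in RIPC replicate 2 and sham replicate 2 no neuron had it. Sstr2 and Sstr5 had differences of -8.12 and -10.9 points, and without naive replicate 3 Sstr2 was at -32.5 points. Somatostatin itself, Sst, was detected in 26 Gad-positive (51.0%) and 14 Gad-negative neurons (29.8%), 14.7 points by estimate (SE 8.60, limma adjusted p = 0.414).

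T-type calcium channels, which open near the resting potential and support burst firing, gave 3 estimates above 0, against 61 of all 120 genes. Cacna1i, the Cav3.3 subunit, was found in 29 Gad-positive (56.9%) and 15 Gad-negative neurons (31.9%). Its difference was 31.9 points (SE 9.66, limma adjusted p = 0.142), with -7.0 in sham replicate 1 against 84.01, 26.61 and 26.35 points in RIPC replicate 2, naive replicate 3 and sham replicate 4. Over the 7 animals its plain share was higher in 5 and lower in 2, and in pools its difference was -2.46 points. Cacna1h and Cacna1g were at 6.65 and 2.35 points. Without naive replicate 3 they were at 19.5 and -6.52 points, and Cacna1g was at -2.42 with animals weighted equally.

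**Figure D4:**
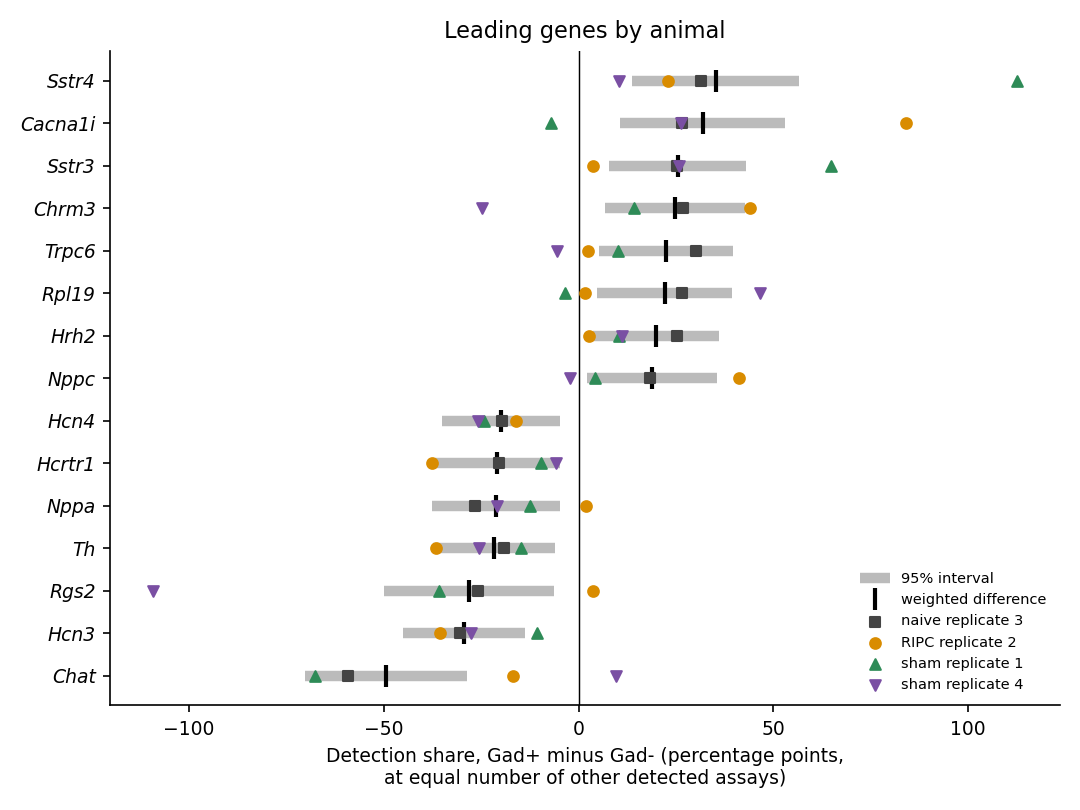
Difference in detection share, Gad-positive minus Gad-negative, in percentage points at an equal number of other detected assays (x axis) for the 15 leading genes reported here, 8 with a higher and 7 with a lower share (y axis); symbols are the 4 animals, black ticks the weighted difference and grey bars its 95% interval. The intervals follow naive replicate 3 closely because of its weight, and sham replicate 4 lies on the other side of 0 for Chat.

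Among the other leading genes with a higher share in Gad-positive neurons, Trpc6, a cation channel gated by diacylglycerol, was rare in the other arm. It was detected in 12 of 51 Gad-positive neurons (23.5%) and in 1 of 47 Gad-negative neurons (2.13%), and the adjusted difference was 22.4 points (SE 7.86, limma adjusted p = 0.142). Of these 13 neurons 9 came from naive replicate 3, with 8 of 22 and 1 of 32, and no neuron of the other 3 animals in the fit had Trpc6, so its difference rests on that rat. With the neuron as the unit and the animal as a block, the adjusted p from limma was 0.0424, and in 8 further fits of that kind it was 0.031 to 0.451, under the threshold in 1. Nppc, the gene of C-type natriuretic peptide, was found in 10 Gad-positive and 1 Gad-negative neurons (18.97 points, SE 7.6). Chrm3, a muscarinic receptor that excites through calcium release, was found in 21 and 8 neurons (24.8 points, SE 8.21), and Hrh2, a histamine receptor, in 40 and 31 (19.99 points, SE 7.36). Rpl19, a ribosomal protein gene on the panel as a housekeeping gene, was found in 30 and 25 neurons and gave 22.2 points (SE 7.88); its sign turned to -3.44 in sham replicate 1. Without naive replicate 3 Rpl19 was at 12.0 and Hrh2 at 7.54 points. All 5 had an adjusted limma p between 0.142 and 0.199.

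Among those with a lower share were Rgs2, a regulator that shortens G protein signals, Nppa, the gene of atrial natriuretic peptide, and Hcrtr1, an orexin receptor. Rgs2 was detected in 38 of 47 Gad-negative (80.9%) and 28 of 51 Gad-positive neurons (54.9%), -28.0 points at equal assays (SE 9.96). In RIPC animals it went the other way, with 3 of 7 and 11 of 18 neurons, and over the 7 animals its plain share was lower in 4 and higher in 2. Nppa was detected in 17 and 11 neurons (-21.1 points, SE 7.52; -7.67 without naive replicate 3, and 2 of 7 and 7 of 18 neurons in RIPC animals) and Hcrtr1 in 21 and 14 (-20.9 points, SE 7.30, below 0 in the 3 animals where it was detected; in sham replicate 4 no neuron had it). Over the 7 animals the plain share of Hcrtr1 was lower in 3 and higher in 2. Each had an adjusted limma p of 0.142.

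Across the other gene lists described here no further gene passed the adjusted threshold. Of 26 peptide receptors tested, 14 had estimates above 0 and 12 below, with a median of 0.58 points. Of 9 serotonin receptors 4 were above and 5 below; Htr2a, an excitatory receptor, was at -18.3 points (SE 6.92, limma adjusted p = 0.166) and below 0 in all 4 animals. Of 7 muscarinic and nicotinic receptors 6 were above 0, against 61 of all 120 genes, with a median of 5.53 points. Not all 6 kept that sign without naive replicate 3. Both dopamine receptors tested were above 0, Drd1 at 9.86 (3.00 without naive replicate 3) and Drd2 at 15.96 points. The 8 neuropeptides and secreted proteins split 4 and 4, with Cck at 20.7 and Cartpt at -15.4 points. Without naive replicate 3 Cck was at -11.04 points. Fos, a marker of recent activity, was found in 10 Gad-positive and 4 Gad-negative neurons and was at 0.60 points (SE 7.36).

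A list of genes that the study had itself named for Gad-expressing neurons or their subtypes held 21 genes, 20 of them tested. Of these 12 had estimates above 0 and 8 below, with a median of 2.96 points, and only Chat passed the adjusted threshold. Those with an unadjusted p under 0.05 were Cacna1i above 0 and Chat, Rgs2, Nppa, Hcn4, Htr2a and Fstl1 below (1 higher and 6 lower of 20, against 8.33% higher and 10.8% lower of all 120 genes). Without naive replicate 3 Cacna1a, Cacna1g, Htr1a, Adra1b and Npr2 had the other sign. The study chose the list on these samples, so it is not independent evidence. The other members ran from -14.8 points for Npff to 16.4 for Kcna1, with Htr1a at 13.9, Chrm5 at 15.3, Kcnn4 at 12.4, Scn1a at 11.9, Cacna1a at -12.2, Adra1a at 7.95, Adra1b at 4.65 and Npr2 at 4.21 points. Without naive replicate 3 Scn1a was at 31.5, Kcnn4 at 21.0, Adra1a at 16.2 and Npff at -7.15 points.

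**Figure D5:**
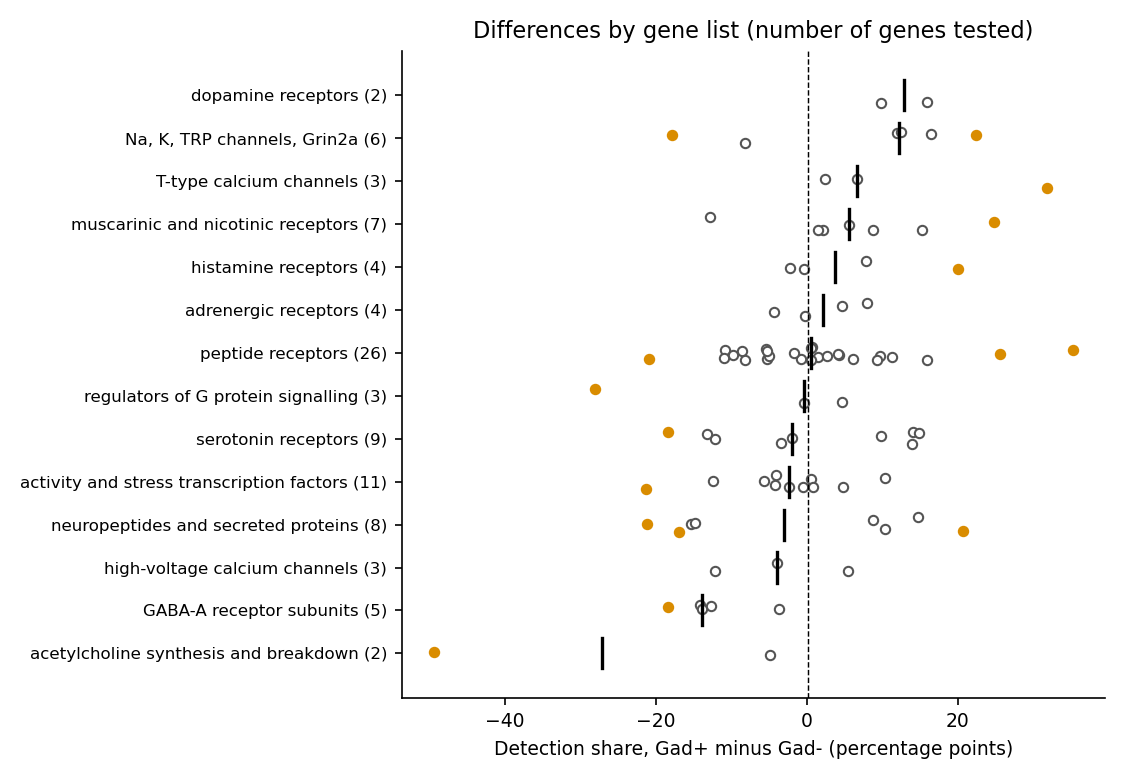
Difference in detection share in percentage points (x axis) for the genes of lists with at least 2 genes tested and reported here (y axis, number tested in brackets); filled points have an unadjusted limma p under 0.05, black bars are list medians and the dashed line is the median of all 120 genes. The 5 GABA-A receptor subunits shown lie below 0 with a median of -13.9 points, and the 3 T-type calcium channels lie above 0.

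Neuronal markers were common in both arms. Camk2a, a kinase of excitatory and many other neurons, was detected in 49 of 51 Gad-positive (96.1%) and 46 of 47 Gad-negative neurons (97.9%), the sodium channel gene Scn2a in 48 and 46, and Eno2 in 48 and 44. Rgs4, Map2 and Eno2, the ones tested, differed by 4.71, -11.7 and -3.27 points. Gfap, the astrocyte gene and the single glial marker on the panel among those listed, was detected in 44 of 51 Gad-positive (86.3%) and 35 of 47 Gad-negative neurons (74.5%), a difference of 8.34 points at equal assays (SE 7.98, limma adjusted p = 0.67). Its level ran from -3.32 to 3.07 cycles with a median of -0.26 in Gad-positive neurons and from -4.39 to 3.29 with a median of -1.07 in Gad-negative neurons. Its part in the results was not tested. Markers of oligodendrocytes and microglia were not analysed here.

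By level, no gene was called in the main fit, while some alternatives in the closing section did call genes. For 42 genes with enough detected neurons in each arm of at least 3 animals, none passed an adjusted p of 0.05 in limma (0% of genes tested; neither did any of 137 with the neuron as the unit), and 14 had an unadjusted p under 0.05 (33.3%), 11 higher (26.2%) and 3 lower (7.14%) in Gad-positive neurons. That split depends on the centre of the scale: the median difference over the 42 genes was 0.34 cycles as centred here, 0.18 with all detected assays as the centre and -0.12 with no centring, and the split of genes with p under 0.05 became 6 higher and 5 lower, and 1 higher and 10 lower.

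Agt, the gene of angiotensinogen, had the smallest p among levels. It ran from -5.29 to 2.35 cycles with a median of -0.04 in 45 Gad-positive neurons and from -3.97 to 0.65 with a median of -0.82 in 35 Gad-negative neurons. The difference was 1.12 cycles (SE 0.30, higher in 3 of 3 animals, limma adjusted p = 0.107) and stayed above 0 with the other centre (0.91) and with none (0.60). Agtrap, which binds the angiotensin receptor, and Hrh2 followed with 1.91 (SE 0.59) and 1.01 cycles (SE 0.32). Agtrap was higher in 2 of 3 animals and Hrh2 in 3 of 3, and with no centring they were at 1.48 and 0.52 cycles. In the other direction, Camk2a was at -0.92 cycles (SE 0.30), Oxtr, the oxytocin receptor, at -0.96 (SE 0.33) and the calcium channel gene Cacna1e at -0.64 (SE 0.27), lower in 3 of 4 animals each. The adjusted limma p was 0.107 for the first 4 of these after Agt and 0.146 for Cacna1e.

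Where Chat was detected, its level was also lower in Gad-positive neurons by estimate. It ran from -8.66 to 2.35 cycles with a median of -0.08 in 27 Gad-positive neurons and from -3.49 to 2.38 with a median of 0.73 in 41 Gad-negative neurons. Too few animals had Chat in both arms for the fit over animals. With the neuron as the unit and the animal as a block the difference was -1.45 cycles (SE 0.53, limma adjusted p = 0.0893). In an alternative chosen after seeing the data, all neurons with Gad1, with or without Gad2, were set against those with neither gene. The difference, again with the neuron as the unit, was then -2.84 cycles (SE 0.64, limma adjusted p = 0.00681). Chat was 1 of 9 genes called by level among 134 in that split (6.72%).

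Treatment was compared last, by asking whether the difference between arms varied with it. In the 4 animals 0 of 120 genes passed the moderated F test at an adjusted p of 0.05 (0%) and 5 had an unadjusted p under 0.05 (4.17%), with a smallest adjusted p of 0.62. By treatment Chat was detected in 10 of 25 Gad-positive and 29 of 32 Gad-negative neurons of naive animals, in 5 of 8 and 6 of 8 after sham surgery, and in 12 of 18 and 6 of 7 after RIPC. The share was lower in Gad-positive neurons under each treatment in these pooled counts, of which the naive ones are nearly all from naive replicate 3. Whether the arms differed by treatment for Chat was tested with the same F test, with an adjusted limma p of 0.75. With 1 naive animal and at most 2 of each surgical group in it, this test had few animals to work with.

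The 88 pools of 2 to 8 cells that met the same limit gave another picture. Here 58 pools (65.9%) were Gad-positive, against 52.0% of single neurons, and Gad-positive pools had more other assays, with a median of 97.5 against 77.0 and a similar mean number of cells (4.10 against 4.00). A pool counts as Gad-positive if any cell in it has a transcript. Chat was detected in 53 of 58 Gad-positive (91.4%) and 19 of 30 Gad-negative pools (63.3%), and at equal assays the difference was 12.4 points (SE 8.50, limma adjusted p = 0.57), the opposite sign to single neurons. Of 128 genes 2 passed the adjusted threshold in pools (1.56%), both higher in Gad-positive pools.

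Drd2, the inhibitory dopamine receptor, was detected in 52 of 58 Gad-positive (89.7%) and 10 of 30 Gad-negative pools (33.3%), a difference of 53.9 points (SE 9.38, limma adjusted p = 0.0012, higher in 7 of 8 animals, exact p = 0.0156). Sst was detected in 38 of 58 (65.5%) and 5 of 30 pools (16.7%), a difference of 39.2 points (SE 9.71, limma adjusted p = 0.0359, higher in 7 of 8 animals). In single neurons both had estimates above 0, as given, and Drd2 was found in 27 Gad-positive (52.9%) and 14 Gad-negative neurons (29.8%), with a higher plain share in the 3 of 4 animals in which the arms differed (SE 7.88, limma adjusted p = 0.322). Drd2 and Sst were found together in 18 of 51 Gad-positive and 6 of 47 Gad-negative neurons. Over the 112 genes tested in both kinds of sample, 54 had the same sign.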

How the data were processed

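The deposited table holds Ct values (raw threshold cycles, exported by the authors from a Biomark system after reverse transcription and rounds of preamplification with all primers); per the labels, no normalization had been applied. Groups, animals, sides and cell numbers came from the labels. The members, gene lists and tests were chosen with earlier results of these data known.

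Duplicate assays of a gene and second runs of 5 kept neurons were averaged. A gene with any Ct counted as detected. Samples were spread over several chips, but no label ties one to a chip, so a chip effect was not tested. No assay sequences were used.

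For each gene and animal with at least 2 neurons in each arm, the difference in detection share was set at an equal number of other detected assays with 1 slope fitted within animal and arm. Animals, which pair the arms, were weighted by n1 n2 / (n1 + n2), and the weighted mean was tested against 0, two-sided, with Benjamini-Hochberg adjustment (limma 3.58.1, R 4.3.3). Levels were the median Ct of the 35 most detected genes minus the gene's Ct and were fitted alike in at least 3 animals. Exact sign-flip tests used the animals. Neurons of 1 animal are separate cells of 1 rat, so the differences tested came from 4 rats. The limma p-values also borrow variance from the other genes, so they do not rest on the spread between 4 rats alone. Treatment dependence was a moderated F test. The fits were tested on simulated data, where unchanged genes had small level p-values somewhat too often. The simulated neurons held no differences between animals, so the simulation cannot show how p-values behave under variation from rat to rat.

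The text names the 8 genes with the smallest p in each direction by share, 3 by level, and the transmitter, GABA-A receptor, study and marker lists. Cck, Cartpt, Drd1, Drd2, Sst, Sstr2, Sstr5 and Cacna1h lie outside this rule and were named after their values were seen. Some genes were fitted with the rest but are not reported here, and list counts leave them out. Alternatives covered the limit on assays, the adjustment, weights, units, minimum neurons, arms set by Gad1 or by Gad2, late Ct and repeat runs. They also covered pools, filters, centring, logistic regression, Cochran-Mantel-Haenszel tests and leaving out each animal. Arms set by Gad1 compared all neurons with Gad1, with or without Gad2, with those that had neither gene, and likewise for Gad2. Fits with the neuron as the unit combined with another change were chosen after seeing the data.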

Additional observations from a re-analysis of the deposited data

Results flagged for a closer look

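For Rgs2 the difference between arms ran in opposite directions after sham surgery and after RIPC. In the 3 sham animals with a neuron in each arm, Rgs2 was detected in all 8 Gad-negative neurons of sham replicates 1, 2 and 4 and in 1 of 2, 0 of 2 and 0 of 3 Gad-positive neurons, and the adjusted differences were -35.72, -90.22 and -109.13 points (mean -78.4). In the 3 RIPC animals it was detected in 0 of 1, 3 of 5 and 0 of 1 Gad-negative and in 3 of 3, 3 of 5 and 5 of 10 Gad-positive neurons, with differences of 55.00, 3.72 and 46.18 points (mean 34.97). Naive replicate 3 was at -25.80 points. The dependence on treatment had an adjusted limma p of 0.0492 over these 7 animals and of 0.62 over the 4 animals with 2 neurons in each arm, and in 2 of the 3 RIPC animals a single Gad-negative neuron sets the value, while in RIPC replicate 2 the plain shares were equal and the sign comes from the adjustment. No outlying animal was found among 22 sets of animals looked at.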

How the results depend on the processing

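Limits. The comparison rests on 4 rats, 1 of which carries 71.8% of the weight, so rats and treatments cannot be told apart for most of what is shown. A limit of 84 assays left 1 animal with 2 neurons in each arm and gave no fit over animals. Among the 15 leading genes, single-neuron alternatives reversed 1 value, Rpl19 at -9.24 points with the neuron as the unit without naive replicate 3. Without the neuron with another animal's title, Chat was at -49.3 points (limma adjusted p = 0.0328). The cause was not tested for any of the changes that follow.

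The arms share animals, so each animal number pairs them. Without the replicate block, and with the neuron as the unit, 7 genes were called by share; with the animal as a block 2 were, also without adjustment for assays. The count by share was 7 at a limit of 59 assays, 2 without adjustment for assays, 0 with equal weights and 2 with 3 neurons in each arm. It was 2 with arms set by Gad1, 0 with first runs only, 2 in pools and 0 with genes at 5% to 98%. By logistic regression it was 2, and without each animal in turn 0 to 3. With the neuron as the unit and the animal as a block it was 0 without naive replicate 3, 2 with Ct above 20 as not detected, 5 by Gad1, 2 by Gad2, and 1 each with animal and side as blocks, first runs only, without RIPC replicate 3, in naive replicate 3 alone and at a limit of 84 assays. The count by level was 1 over 7 animals (Agtr1a), 1 with arms set by Gad1 and 9 with Ct above 20 as not detected. It was 2 with first runs only, 5 with no centring and 0 to 1 without each animal. With the neuron as the unit the count by level was 1 with Ct above 20 as not detected and 9 by Gad1. The count for treatment dependence was 1 over 7 animals (Rgs2). The number of genes tested changed with the setting, so these counts do not share 1 base. By level it was 42 in the main fit, 137 with the neuron as the unit and 134 of that kind by Gad1. By share it was 120 in the main fit and 128 in pools.

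The difference in other detected assays was -1.40 with equal weights, 16.98 in pools (exact p = 0.0234 over 8 animals) and -4.11 to 3.90 without each animal. In pools the following shares had the other sign, in points: Sstr4 -2.60, Cacna1i -2.46, Cck -5.37, Sstr3 -20.27, Rpl19 -27.82, Hrh2 -1.21, Chat 12.44, Hcn3 3.55, Hcn4 2.90, Rgs2 3.30, Ache 0.83, Gabra2 15.81, Gabrb1 1.70, Gabrb2 1.02, Gabrq 9.21, Cacna1a 7.28, Chrm5 -0.36, Htr1a -3.46, Adra1b -15.87, Adra1a -12.77, Npr2 -4.23, Rgs4 -10.53 and Eno2 8.71, and so did the levels of Agtrap (-0.93 cycles), Hrh2 (-0.36) and Camk2a (0.37). Agt was at -0.0727 cycles with the neuron as the unit and a limit of 84 assays.

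Genes with small differences also turned. At a limit of 59 assays Gabrb1 was at 3.19, Fos at -5.17, Sstr2 at 4.01 and Cacna1g at -1.27 points. With equal weights Htr1a was at -0.42, Adra1b at -4.43, Cacna1g at -2.42, Npr2 at -13.91 and Rgs4 at -4.78. With 3 neurons in each arm Dbh was at -1.46 and Fos at -2.66. With arms set by Gad1, Gabrb1 was at 4.33, Sstr2 at 1.96, Fos at -2.42, Eno2 at 2.56 and Gfap at -1.15. With first runs only Fos was at -1.56 and Eno2 at 1.03, and with Ct above 20 as not detected Dbh at -2.05 and Fos at -1.16. By logistic regression Fos had log odds of -0.35. Without each animal in turn the ranges were -9.08 to 5.06 for Ache, -11.04 to 26.92 for Cck, -0.45 to 18.30 for Dbh, -21.06 to 5.77 for Cacna1a, -8.34 to 21.50 for Htr1a, -11.99 to 7.83 for Adra1b, -1.08 to 13.60 for Fos, -6.52 to 5.70 for Cacna1g, -15.01 to 8.66 for Npr2 and -6.93 to 0.33 for Eno2.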
